A study of Pichia kudriavzevii with 6 samples.

Results

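Succinic acid was added to a glucose medium, and the transcript levels of the yeast Pichia kudriavzevii were compared with those on glucose alone. Succinic acid is a C4 dicarboxylic acid and an intermediate of the tricarboxylic acid cycle. The comparison used the 2 GS and the 2 SoleG libraries, 4 of the 6 samples of the series, chosen by their labels and not by measured values. All cells were of strain CY902 with the URA3 gene deleted (delta-URA3), so they could not make their own uracil. SoleG cells were in synthetic dextrose (SD) medium with 2% glucose, and GS cells were in SD medium with 2% glucose plus 2% succinic acid. Both media were set to pH 5.0 with NaOH. Cells from a glucose preculture of 24 hours were washed, then held in 50 mL of test medium for 3 hours at 30 °C. The acid, the NaOH it needed and any change in solute concentration came together in GS and cannot be told apart. The remaining group, SoleS, held 2% succinic acid without glucose. SoleS is given here as a further level and also took part in the processing, as described below. All 3 media were tested in 1 strain background, and the labels do not say whether the 2 libraries of a medium came from separate cultures. The p-values therefore measure only the spread between libraries within the 3 media, SoleS included, which the model partly shares between genes.

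Dicarboxylic acids cross the yeast plasma membrane through carriers as ions, and in their undissociated form they can also enter by slow diffusion. In Saccharomyces cerevisiae the monocarboxylate carrier gene JEN1 is repressed by glucose. Acid that enters the cytosol dissociates and releases protons, which the cell pumps out at a cost in energy. Pichia kudriavzevii is known for its tolerance of organic acids at low pH. The series set out to find the carriers of C4 dicarboxylic acids in this species. Genes carry IDs such as PK3316, which the files do not pair with names, and 0 of the 5464 IDs matched the RefSeq table for this species. The results below are therefore ordered by size, level and coding length, no function is given to any gene, and no sequence is shown. URA3 could not be looked up for the same reason.

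The 4 libraries had similar depth, with total counts of 6269038 to 6744749 over the 5464 genes. Across 5280 genes, the Pearson correlation of log2 CPM (counts relative to library size, after TMM factors that correct for library composition) was 0.992 within SoleG and 0.993 within GS. It was 0.966 to 0.973 between libraries of the 2 media. These are correlations across genes, which are not independent replicates. The limit set by a count of 0, taken as 3 counts, was 0.416 to 0.492 CPM in these 4 libraries and covers counting error only.

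The response to added succinic acid was broad and mostly small. Of 5280 genes tested, 1056 were higher in GS (20.0%) and 927 were lower (17.6%), by edgeR's quasi-likelihood test at a Benjamini-Hochberg adjusted p below 0.05. Genes past this threshold are referred to as called. A change of at least 2-fold was seen in 138 higher genes (2.61% of those tested) and in 101 lower ones (1.91%). A test against a change of 1.5-fold, rather than against no change, was passed by 199 higher genes (3.77%) and 103 lower genes (1.95%; edgeR glmTreat, adjusted p below 0.05). The lowest GS library lay above the highest SoleG library in 1797 genes (34.0%), and the highest GS library lay below the lowest SoleG library in 1803 genes (34.1%). Such a separation was thus common among genes that were not called. The balance of directions depended on how libraries were scaled. Over all genes the median log2 fold change was -0.01 under TMM and -0.15 when libraries were scaled by their totals. The called genes then split into 697 higher and 1711 lower, so the higher share fell from 53.3% to 28.9%. The order also turned at 2-fold, with 88 higher and 135 lower genes, and past 1.5-fold by the threshold test, with 103 higher and 151 lower. Without GS replicate 2 the 103 genes lower past 1.5-fold became 78 and the 199 higher genes 122.

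**Figure D1:**
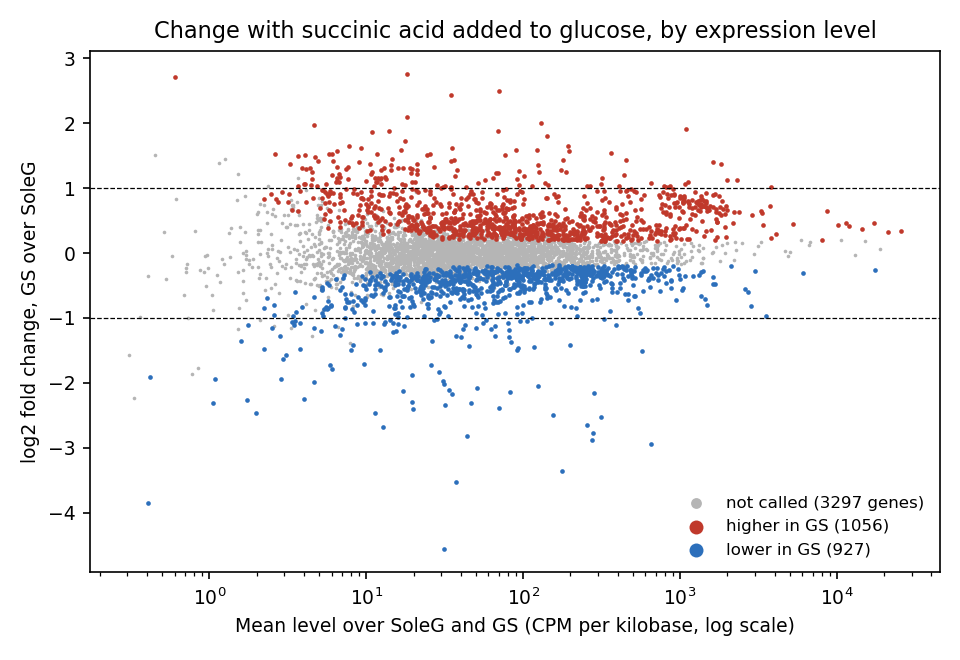
Each point is 1 of 5280 genes, with the mean level over the SoleG and GS groups in CPM per kilobase of coding length (log axis) against the log2 fold change of GS over SoleG. Grey points are 3297 genes not called, and dashed lines mark 2-fold. Falls reach further from 0 than rises, and the abundant genes near 1000 CPM per kilobase include a dense group of rises.

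For most genes that were not called, a large change could be bounded. There were 3297 such genes. In 2561 of them (77.7%) the 95% interval of the log2 fold change (limma-voom) lay inside 1.5-fold in either direction, and in 3073 (93.2%) it lay inside 2-fold. The 224 genes with wider intervals had a median of 2.92 CPM, against 65.5 CPM for the 2561 genes with the narrow ones. For these 224 genes, mostly weakly expressed, a 2-fold change could not be bounded at this depth.

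Falls outnumbered rises among the largest changes, while the balance at moderate sizes turned with the scaling. Under TMM the rises were more numerous there. Between 1.5-fold and 2-fold, 310 called genes were higher and 176 lower, and between 2-fold and 3-fold 118 were higher and 59 lower. With total counts these became 215 higher and 342 lower, and 76 higher and 83 lower. At 4-fold or more 6 genes were higher and 30 lower under TMM. The 4 genes that changed 8-fold or more were all lower. The folds of the gene of 1260 bases, among these 4, and of 861 bases, among the 6 higher, rest on few counts, as given below. The median size of the changes of at least 2-fold was 1.25 on the log2 scale for the 138 higher genes and -1.45 for the 101 lower genes. The counts at 4-fold or more were 6 to 12 higher and 25 to 39 lower when each library was left out in turn. The 12 higher genes came without SoleG replicate 2, where 39 were lower. With total counts they were 4 higher and 36 lower, so the excess of falls held under both scalings.

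**Figure D2:**
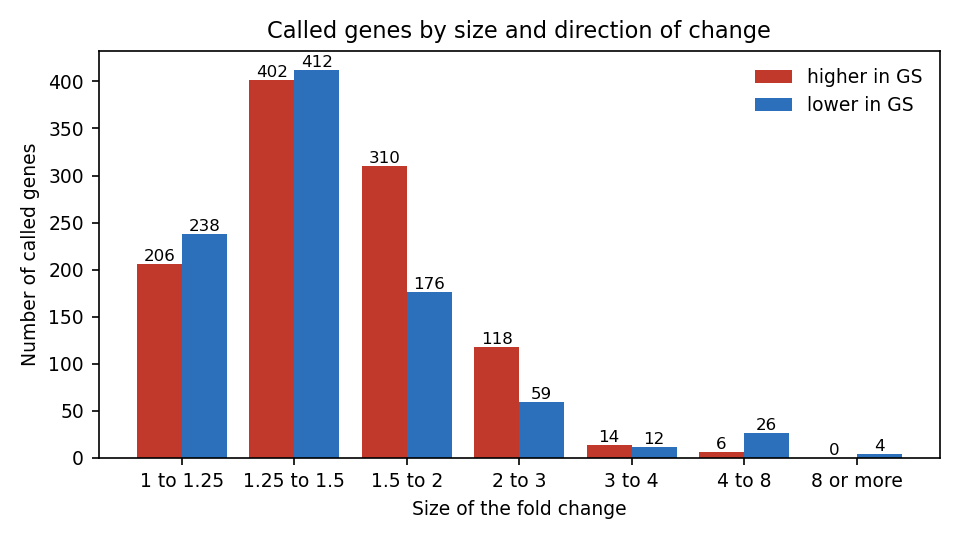
Bars show the number of called genes, higher in GS (red) or lower in GS (blue), by the size of the fold change. Under TMM scaling, shown here, higher genes are more numerous from 1.5-fold to 3-fold (with total counts lower genes are), and lower genes from 4-fold upwards, with 26 against 6 between 4-fold and 8-fold.

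The 6 genes at least 4-fold higher ranged from barely detected to moderately expressed, and all had both GS libraries above both SoleG libraries. The largest fold with at least 50 CPM was that of PK3316, with a coding length of 1605 bases. PK3316 was at 40.2 and 55.1 CPM in the SoleG libraries and at 261 and 275 CPM in the GS libraries. The groups did not overlap, as the rule for naming required, and the lowest GS value was 4.74 times the highest SoleG value. The log2 fold change was 2.49 ± 0.11 (SE; edgeR adjusted p = 3.94e-14). PK3316 was lower in SoleS than in either glucose medium, at 12.6 and 7.69 CPM. The gene with the next ID number, of 453 bases, showed the same order of the 3 media at a lower level. It went from 2.63 and 3.56 CPM in SoleG to 21.7 and 20.2 CPM in GS (log2 fold change 2.75 ± 0.25 SE; edgeR adjusted p = 6.96e-09). In SoleS it was at 0.451 and 0.342 CPM, on 3 and 2 counts. The IDs on the other sides of this pair rose too, by smaller amounts: the gene before PK3316 had a log2 fold change of 0.71 and the gene after the pair 0.72, both called by edgeR.

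The other 4 of these 6 genes were at least as high in SoleS as in SoleG. They are given by coding length, and were chosen after their values were seen. The gene of 1545 bases was at 90.7 and 110.0 CPM in SoleG, 403 and 404 CPM in GS, and 346 and 338 CPM in SoleS, so GS was its highest medium. The genes of 1776 and 942 bases were higher in SoleS than in GS. The first had 719 ± 49 CPM in SoleS (SD, n = 2) against 142.4 ± 3.7 CPM in GS, and the second 73.2 ± 1.8 against 35.1 ± 2.5 CPM. The gene of 861 bases was also higher in SoleS, at 18.2 ± 3.5 CPM (SD, n = 2) against 1.03 CPM in GS. In the glucose media this gene rested on few counts, with 1 in each SoleG library and 7 and 6 in the GS libraries. Its fold change is therefore imprecise (log2 2.72 ± 0.91 SE; edgeR adjusted p = 0.0207).

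The largest fall was that of PK5146, of 699 bases. PK5146 was at 114 and 95.9 CPM in SoleG and at 3.99 and 4.92 CPM in GS, on 26 and 30 counts. Its lowest SoleG value was 19.5 times its highest GS value. The log2 fold change was -4.56 ± 0.17 (SE; edgeR adjusted p = 1.92e-15), and SoleS was lower still at 0.901 and 1.54 CPM. The gene with the next ID number, of 885 bases, moved with it. That gene fell from 120 and 103 CPM in SoleG to 9.07 and 10.2 CPM in GS (log2 fold change -3.53 ± 0.15 SE; edgeR adjusted p = 1.16e-14). The IDs on either side of the pair did not share the fall, with log2 fold changes of 0.21 before it and 0.13 after it. Only the first of these 2 was called (edgeR adjusted p = 0.0214).

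The 2 other genes at least 8-fold lower differed from this pair in SoleS. The gene of 1653 bases was at 859 and 1013 CPM in SoleG and fell to 95.9 and 86.6 CPM in GS (log2 fold change -3.36 ± 0.09 SE; edgeR adjusted p = 6.62e-18). In SoleS it stood between the glucose media, at 242 and 259 CPM. The gene of 1260 bases was near the floor in both glucose media, with 15 and 5 counts in SoleG and 1 and 0 in GS. The fitted value (log2 fold change -3.85 ± 0.92 SE; edgeR adjusted p = 0.00182) says little of its size, while SoleS gave it 6330 ± 57 CPM (SD, n = 2). Both were chosen after their values were seen. Outside the genes tested, 1 gene of 729 bases had 6 and 5 counts in SoleG and 0 in both GS libraries. It was picked for 0 counts in GS and more than 3 in each SoleG library, so its fall follows from the choice. Against a floor of 3 counts over the GS group the ratio was 3.24, which leaves out the counting error in SoleG.

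**Figure D3:**
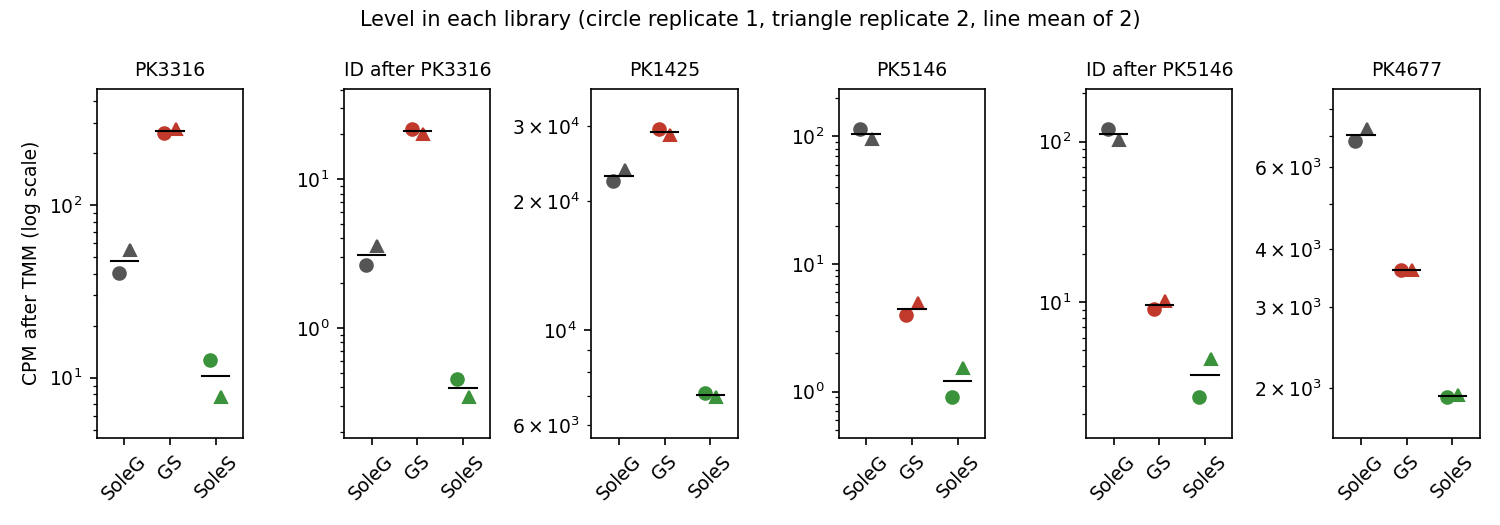
CPM after TMM scaling (log axis) in each library of SoleG, GS and SoleS for PK3316, PK1425, PK5146 and PK4677 and for the genes with the ID after PK3316 and after PK5146. Circles are replicate 1, triangles replicate 2 and lines the mean of 2. In all 6 genes the GS and SoleG libraries do not overlap, which the naming rule required of the named ones. Each gene with the next ID follows the order of its neighbour.

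Some genes changed at least 2-fold had a changed gene beside them in the ID numbering, as in the pairs above. Of the 101 lower genes, 21 (20.8%) had a neighbouring ID number that was also at least 2-fold lower. Among the 5179 other genes tested, 164 (3.17%) had such a neighbour. Of the 138 higher genes, 16 (11.6%) had a neighbouring ID at least 2-fold higher, against 247 of 5142 other genes (4.80%). These genes formed 10 runs of lower genes, the longest of 3, and 8 pairs of higher genes. Whether the ID numbers follow the order of genes on the chromosomes was not tested, and neighbours with similar sequences could share reads. The 21 lower genes became 11 of 84 without SoleG replicate 1 and 33 of 135 with total counts. The 16 higher genes became 24 of 165 without SoleG replicate 2, and 10 of 88 with total counts.

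Genes changed at least 2-fold spanned a wide range of levels, with medians below that of all genes. Their median level over both media was 19.1 CPM per kilobase for the 138 higher genes and 25.9 for the 101 lower genes, against 44.8 over all genes tested. By the medium with the larger mean, 46 of the 138 and 28 of the 101 reached 100 CPM, and 9 and 2 reached 1000 CPM. The 138 higher genes held 1.51% and 1.65% of the counts in the SoleG libraries and 3.41% and 3.45% in the GS libraries. The 101 lower genes went from 1.71% and 1.47% to 0.356% and 0.361%. These shares describe genes chosen on the same libraries. The median coding lengths were 1226 and 1230 bases against 1248 bases over all genes tested.

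Many abundant genes rose by moderate amounts. At a mean level over both media of 700 to 2000 CPM per kilobase of coding length there were 220 genes, limits chosen after the values were seen. Of these, 136 (61.8%) were called higher and 32 (14.5%) lower, where 20.0% and 17.6% of all genes tested were. Calls were more frequent at high levels in both directions, and among the 1056 most abundant genes 35.7% were higher and 25.8% lower. With total counts the same window held 118 higher and 54 lower genes. The threshold test of 1.5-fold was passed by 46 higher genes and 1 lower gene in it. The median log2 fold change was 0.37, and 85 of the 220 genes lay between 0.5 and 1.

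The short genes among them had the larger median change, a difference that was not tested. Of the 107 with up to 600 bases, 68 were higher, 18 lower and 21 not called, and the median log2 fold change was 0.61. Of the 113 longer genes, 68 were higher, 14 lower and 31 not called, with a median of 0.30. The SoleG libraries also differed by length. Replicate 2 minus replicate 1 had a median of -0.07 on the log2 scale in the 107 short genes and 0.05 in the 113 longer ones. In GS these medians were 0.02 and 0.01. The part of this in the difference by length was not tested. The median level of the 107 short genes was 1005 and 987 CPM per kilobase in the SoleG libraries and 1255 and 1284 in the GS libraries. In SoleS it was 640 and 690. They took 4.76% and 4.42% of the counts in SoleG and 5.57% and 5.66% in GS. Below this window 101 of 803 short genes were higher and 133 lower (median log2 fold change -0.05). With each library left out in turn, 65 to 68 of the 107 short genes were called higher and 15 to 21 lower. With total counts these were 65 and 28.

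**Figure D4:**
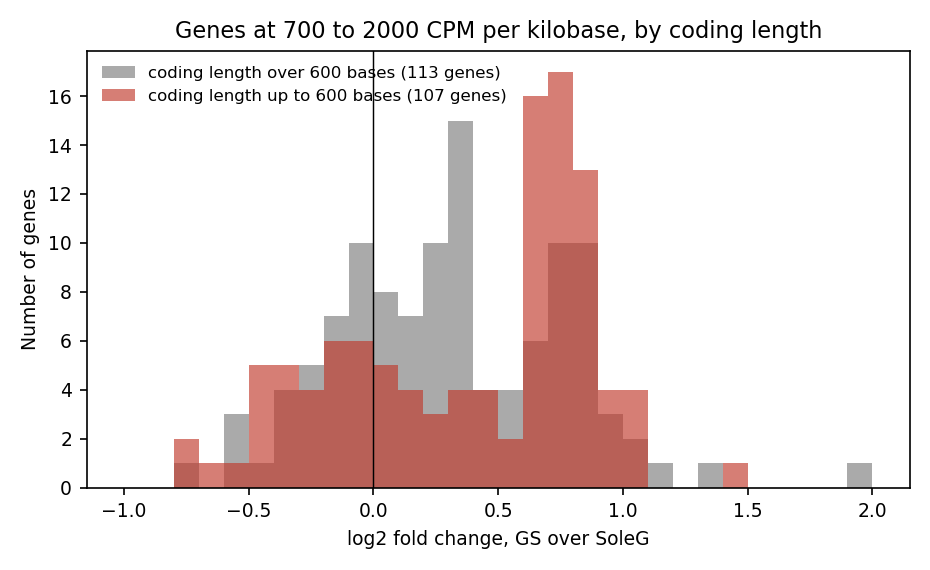
Histogram of the log2 fold change of GS over SoleG for 220 genes at 700 to 2000 CPM per kilobase, with coding lengths up to 600 bases (red, 107 genes) and over 600 bases (grey, 113 genes). The short genes peak between 0.5 and 1, where 52 of them and 33 longer genes lie, while most longer genes lie below 0.5.

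Among the 50 most abundant genes, each at 2032 CPM per kilobase or more, 25 were higher, 8 lower and 17 not called. Over all genes tested 20.0% were higher and 17.6% lower, and among the 1056 most abundant 35.7% and 25.8%. The median log2 fold change of the 50 genes was 0.20, with a range from -0.97 to 1.38, and 4 of them changed at least 2-fold. With total counts 22 of the 50 were higher and 10 lower, and the median was 0.05. They held 27.2% and 27.8% of the counts in SoleG and 29.9% and 29.4% in GS. Ranks were by the mean over these 4 libraries. The gene that gained most in CPM, PK1425 of 1008 bases and known here only by its ID, lay among them. It was at 22285 and 23690 CPM in SoleG and at 29504 and 28586 CPM in GS. The groups did not overlap, as the rule for naming required, and the rise was 1.26-fold (log2 fold change 0.34 ± 0.08 SE; edgeR adjusted p = 0.00137). With total counts it was 0.19 on the log2 scale (edgeR adjusted p = 0.0251). SoleS held 7137 and 6964 CPM of it.

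The gene that lost most in CPM was PK4677, of 1434 bases. PK4677 was at 6826 and 7239 CPM in SoleG and at 3608 and 3596 CPM in GS. All SoleG values were at least 1.89 times the GS values. The log2 fold change was -0.97 ± 0.07 (SE; edgeR adjusted p = 4.23e-10), and the fall was larger than 1.5-fold by the threshold test (edgeR glmTreat adjusted p = 0.00013). SoleS was lower again, at 1914 and 1933 CPM.

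In genes changed at least 2-fold, the SoleG libraries differed from each other along the direction of the response. The GS libraries did so in the higher genes only. SoleG replicate 2 was above replicate 1 in 20 of the 101 lower genes (19.8%), against 49.5% of all genes tested, so that it mostly lay on the side of GS. In the 138 higher genes it was above replicate 1 in 87 (63.0%). GS replicate 2 was above GS replicate 1 in 94 of the 138 (68.1%) and in 55 of the 101 (54.5%). The median difference of replicate 2 from replicate 1 on the log2 scale was -0.22 in SoleG and 0.05 in GS for the lower genes, and 0.09 and 0.11 for the higher genes. These medians are small beside the changes themselves. Across all 5280 genes, the change in GS correlated at r = 0.13 with the difference between the SoleG libraries and at r = 0.11 with that between the GS libraries. Over the 2957 genes with at least 50 CPM these values were 0.27 and 0.08. Without SoleG replicate 2, 165 genes were at least 2-fold higher and 121 lower, and without replicate 1 the counts were 142 and 84. The part of this difference in the results was not tested further.

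**Figure D5:**
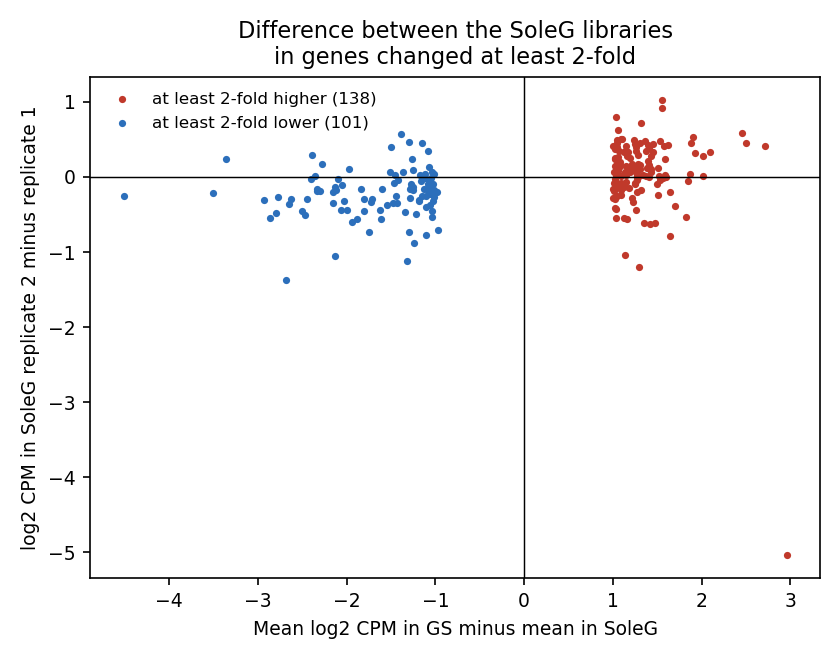
For genes changed at least 2-fold, the mean log2 CPM in GS minus that in SoleG is plotted against log2 CPM in SoleG replicate 2 minus replicate 1. Most of the 101 lower genes (blue) lie below 0 and 87 of the 138 higher genes (red) above 0. The point far below the others is a gene with 35 counts in SoleG replicate 1 and 0 in replicate 2.

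That gene, of 1038 bases, was the exception among the 239 genes changed at least 2-fold whose libraries overlapped between the media. It had 60 and 29 counts in GS. It was called all the same (log2 fold change 1.51; edgeR adjusted p = 0.0415), and was chosen for mention after its values were seen.

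Set beside SoleS, the 138 higher genes stood highest in SoleS in 95 cases, highest in GS with SoleS lowest in 29, and with SoleS between the glucose media in 14. The 101 lower genes had their highest mean in SoleS in 50 cases, their lowest in 28, and SoleS in between in 23. Over all 5280 genes tested SoleS was highest in 44.9%, lowest in 45.9% and in between in 9.19%. The share with SoleS highest was 68.8% in the 138 higher genes and 49.5% in the 101 lower genes, the latter near that of all genes. The excess in higher genes did not extend to smaller changes. Among all 1056 called higher genes SoleS was highest in 37.3% and lowest in 49.9%. Among all 927 called lower genes it was highest in 48.3% and lowest in 33.9%. The sets also differed in level, with a median in SoleG of 12.3 CPM per kilobase for the 138 genes and 67.9 for the 1056. Over all genes tested it was 45.6. At 700 to 2000 CPM per kilobase over the glucose media, SoleS was lowest in 166 of 220 genes. The shares above were not matched for level. All these counts order the means of 2 libraries and carry no test.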

How the data were processed

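Raw read counts per gene and coding lengths were taken from the files deposited by the authors, 1 per library, per the file headers. The authors' FPKM values were not used. Bowtie2 2.2.5, a read aligner, is listed per the submitters' processing notes. How reads were then counted (tool, strand, multiple matches) is not given in the sources used here, and neither are the build and gene models. Counts of similar or overlapping genes are uncertain for that reason.

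Genes with low counts were removed with filterByExpr, which left 5280 of 5464 genes (the rest held 0.00351% of the counts). edgeR 4.0.16 (R 4.3.3) then fitted 1 model with the 3 media to the 6 libraries, using TMM factors and the quasi-likelihood functions, and 3 degrees of freedom remained. SoleS thus entered the filter, the TMM factors and the estimate of the spread. The genes of 861 and 1260 bases passed the filter through their counts in SoleS. Fitted to the 4 GS and SoleG libraries alone, 5 genes were at least 4-fold higher and 29 lower. P-values were adjusted over all genes tested. SEs were computed as the absolute log2 fold change over the root of the F statistic. Intervals came from limma-voom (limma 3.58.1). Levels between genes are CPM per kilobase of coding length. The tests were also run on simulated counts in which far fewer genes changed than were called here. That setting cannot check how the scaling affects the balance of directions.

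At most 2 higher and 2 lower genes are named: in each direction the largest fold at 50 CPM or more in the higher group, and the largest difference in CPM. Only called genes whose GS and SoleG libraries did not overlap could be named. Members, rules and lists were chosen with earlier results of these data known. The labels do not say that a replicate number marks a shared culture or day, so the model had no replicate term. The correlation of replicate differences across genes was -0.04 between SoleG and GS. It was -0.11 between SoleG and SoleS and 0.05 between GS and SoleS. These values cannot show whether the libraries were paired.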

Additional observations from a re-analysis of the deposited data

How the results depend on the processing

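Results were recomputed with RLE or upper-quartile factors, total counts, without the filter, with one of 50 counts in 2 libraries, DESeq2 1.42.0, limma-voom, the 4 libraries alone, the replicate number as a block, and each library left out in turn, where the lone library of a group is assumed to vary like the others. The total of 1983 called genes ranged from 1547 (DESeq2) to 2408 (total counts). With a library left out it was 1363 to 1838, of which 603 to 847 were lower and 760 to 991 higher. Total counts moved most directional counts. These became 697 higher and 1711 lower called genes, 88 higher and 135 lower at 2-fold, 103 higher and 151 lower past 1.5-fold, 1126 higher and 2758 lower genes without overlap, and 28 short and 26 longer abundant genes lower. The threshold test gave 200 to 310 genes with a library left out, 122 to 190 of them higher, lowest without GS replicate 2. Genes at least 4-fold higher numbered 6 to 12 with a library left out and 4 to 7 otherwise. Without GS replicate 2, 1339 of the 1983 calls (67.5%) were kept, and 223 of the 239 at 2-fold. The replicate block kept 1897 calls and 236 of the 239, and the 4 named genes stayed called with it. Under all 13 alternatives these 4 genes kept their direction and stayed called, with a largest adjusted p of 0.0251. The cause of these differences was not tested, other than that leaving out a library leaves fewer samples. The settings for the counts at 4-fold, abundant genes and neighbouring IDs were chosen after seeing the data.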
